A study of Homo sapiens with 4 samples.

Results

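This report describes the RNA regions recovered with HuR, over control immunoglobulin (IgG), from WS1 human skin fibroblasts after 5 Gy of X-rays. Its members are all 36216 peaks of the 5 Gy list, out of 84146 peaks in the 2 lists of the series. The other 47930 peaks are those of the unirradiated (0 Gy) list, which serves as a reference. WS1 is an established line of skin fibroblasts, and both doses used that line. The 4 groups were HuR RIP at 5 Gy, IgG control at 5 Gy, HuR RIP at 0 Gy and IgG control at 0 Gy, with 1 library in each. The labels name no genotype, other treatment or time after irradiation. Without replicates, no difference between the lists has a replicate check, and no p-value was computed.

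RNA immunoprecipitation recovers RNA together with an antibody-bound protein, and sequencing then shows which transcribed regions came along. HuR, the product of ELAVL1, is an RNA-binding protein with RNA recognition motifs that bind U-rich and AU-rich stretches in introns and 3′ untranslated regions. It is mostly nuclear, moves to the cytoplasm under stress, and is known for stabilising messages of growth and stress responses. The antibody recovers RNA without marking the bound base, so a peak is a stretch of recovered RNA and not a binding site. A change in RNA amount, in cell number and in HuR occupancy cannot be told apart in such lists.

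Peaks are given by hg19 position, counted from 1. The lists hold no gene names or strand, and no hg19 annotation was at hand. A gene named beside a position is background from general knowledge of hg19, not the product of a join. Exons, introns and untranslated regions were not assigned, and fibroblast markers could not be checked. All 63 symbols used for naming stand on the stated chromosome in the RefSeq gene table of another build, GRCh38. No peak sequence is printed, because no hg19 genome was at hand. The score of a peak is the authors' peak score. It starts at 60.01 in the 5 Gy list and is tied at 3100 for 2000 peaks, with another 70 above that, so the strongest peaks are not ordered by it. It grows with read depth, which is unknown from these lists, so a difference in score between the 2 lists is not read as a difference in RNA level.

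The 5 Gy list was made of many short peaks and a small number of very long ones. Lengths ran from 130 to 18027 bp, with a median of 559 bp (95% interval of counting error 554 to 563) and a mean of 958 bp. The middle 50% of peaks lay between 389 and 1001 bp, and 1% were longer than 5686 bp. The 5851 longest peaks, 16.2% of the list, held 50% of its 34.71 Mb. Peaks of at least 4 kb numbered 1083 (2.99% of peaks) and held 17.4% of the covered length. The 0 Gy list had 1019 peaks of that size, 2.13% of its larger number. For peaks of at least 10 kb the counts were 26 at 5 Gy and 16 at 0 Gy.

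Score and length rose together only in part. Across the 36216 peaks, which share their libraries, Spearman's rank correlation between length and score was 0.55. The median score was 80.4 among peaks of 250 to 399 bp, 336 among those of 1000 to 1999 bp and 2509 among those of 4000 to 9999 bp. Peaks under 250 bp went against this order, with a median score of 132. Among the 9926 peaks under 400 bp, 289 scored at least 1000, and none of these 289 lacked a 0 Gy peak at the same place. The match share also rose with score in the list as a whole, from 73.0% of all peaks to 86.5% at a score of at least 100. The full match of the 289 is therefore not read as a trait of short peaks. The shortest of them covered 185 bp, at chr12:92363148-92363332, with a score of 1193. At the other end, a peak of at least 4 kb could score as low as 62.9.

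Overlap with the 0 Gy list was read against the share in the whole 5 Gy list. A 0 Gy peak was met over at least 1 bp by 26431 peaks, or 73.0% of the list (95% interval 72.5 to 73.4). By length, the share was 64.6% under 250 bp, 53.4% from 250 to 399 bp, 81.8% from 700 to 999 bp and 97.3% from 2000 to 3999 bp. It was 99.2% from 4000 to 9999 bp, and all 26 peaks of at least 10 kb overlapped one. A longer peak has more base pairs with which to overlap, and this part of the trend was not separated.

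The 15 longest peaks ran from 11284 to 18027 bp and lay on 12 chromosomes, 3 of them on chromosome 12. Their scores ranged from 546 to the tie at 3100, which 6 of them reached. The next in length, outside these 15, covered 11171 bp. Each of the 15 overlapped 0 Gy peaks, 38 in all. In 4 cases 1 peak of the 0 Gy list lay against the 5 Gy peak, and in 11 cases at least 2 did. The median share of their length also under 0 Gy peaks was 94.4%, with a range from 31.5% to 100%. Since the 15 were picked for length at 5 Gy, shorter or divided counterparts at 0 Gy are partly fixed by the choice. Of the 15 longest peaks at 0 Gy, picked the same way, 12 met 1 peak of the 5 Gy list, 2 met at least 2 and 1 met none.

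**Figure D1:**
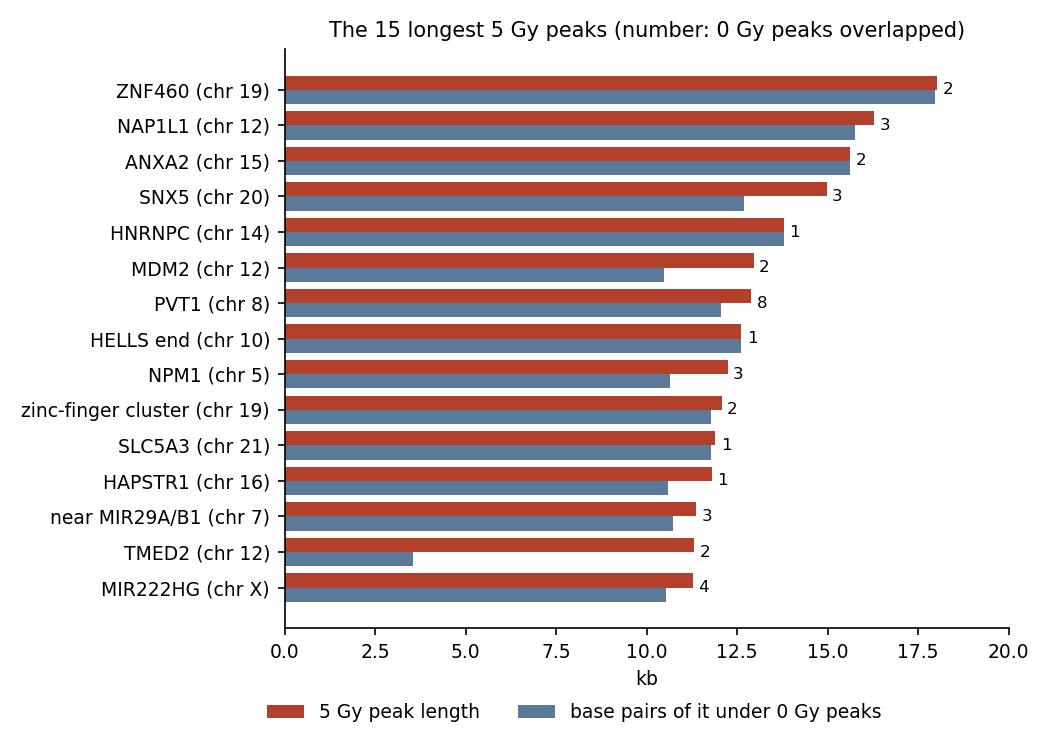
Length of the 15 longest 5 Gy peaks in kb (red bars) and the part of each that lay under 0 Gy peaks (blue bars), with the number of 0 Gy peaks overlapped printed beside the bars. The blue bar nearly equals the red one at most loci, and falls to 31.5% of it at the TMED2 locus. Gene names are background knowledge of the positions.

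Among the longest peaks, 3 lay at genes of proteins that bind RNA or histones. At NAP1L1, which encodes a histone chaperone, the peak chr12:76462483-76478768 covered 16286 bp with a score of 1097. At 0 Gy the same stretch held 3 peaks, the longest of 5857 bp, and the highest of their scores was 3100. At HNRNPC, which encodes a pre-mRNA binding protein that also recognises U-tracts, the peak chr14:21723839-21737630 covered 13792 bp. It lay wholly within 1 peak of 14385 bp at 0 Gy. At NPM1, the gene of the nucleolar chaperone nucleophosmin, the peak chr5:170819983-170832219 covered 12237 bp. The 0 Gy list had peaks of 9102, 776 and 759 bp there.

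Genes of membrane and trafficking proteins gave 4 of the 15. ANXA2 encodes a phospholipid-binding annexin, and its peak chr15:60674495-60690108 covered 15614 bp, tied at 3100. At 0 Gy that stretch was held by peaks of 4526 and 11355 bp. SNX5, which encodes a sorting nexin of endosomes, had a peak of 14969 bp (chr20:17936260-17951228) with a score of 862. Its 0 Gy counterparts had lengths of 787, 424 and 11754 bp, the last tied at 3100. SLC5A3 encodes a sodium and myo-inositol cotransporter, and its peak chr21:35466894-35478787 covered 11894 bp against 12179 bp at 0 Gy. TMED2, the gene of a cargo receptor between endoplasmic reticulum and Golgi, stood apart from the other 14. Its peak chr12:124063901-124075217 covered 11317 bp, of which 3560 bp (31.5%) lay under 0 Gy peaks, of 3034 and 526 bp.

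MDM2 and PVT1 also carried peaks of this size. MDM2 encodes the ubiquitin ligase that restrains p53 and is itself a p53 target. Its longest 5 Gy peak, chr12:69231677-69244632, covered 12956 bp and reached over 0 Gy peaks of 7518 and 2961 bp. A second long peak there, chr12:69202558-69212351, covered 9794 bp. At this locus 11 peaks of the 5 Gy list took up 34.8 kb, where 15 of the 0 Gy list took up 25.5 kb, so fewer peaks covered more sequence. PVT1 is a long noncoding RNA gene neighbouring MYC. Its 12887 bp peak was tied at 3100 and lay over 8 peaks of the 0 Gy list, none longer than 3162 bp and none scoring above 2190.

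The rest of the 15 lay at zinc-finger genes, a chromatin gene, a stress-response gene and microRNA loci. The longest peak of the list, 18027 bp at chr19:57801966-57819992, lay in a cluster of zinc-finger genes at ZNF460. It overlapped 0 Gy peaks of 17257 and 846 bp, which covered 99.6% of it. Another of 12069 bp, chr19:53145595-53157663, lay in a second zinc-finger cluster and scored 695. HELLS encodes a chromatin remodeller of the SNF2 family, and the peak of 12615 bp at its end (chr10:96361062-96373676) lay within a 0 Gy peak of 12764 bp. HAPSTR1 encodes a factor of cellular stress signalling. Its peak chr16:9195480-9207279 covered 11800 bp and scored 2571, and the 0 Gy peak there covered 10586 bp and scored 943.

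The microRNA loci are shown with their mature products because 2 of the 15 longest peaks lay in these regions. The distance of those peaks from the microRNA hairpins was not measured. Chromosome X carries the host transcript of miR-221 and miR-222, MIR222HG, and chromosome 7 carries the pair miR-29a and miR-29b-1. The sequences are from RefSeq, given 5′ to 3′, with the seed (bases 2 to 8) in capitals. The peaks are long stretches of recovered RNA without strand, and whether they belong to the primary transcripts was not tested. They say nothing of the mature forms.
miR-221-3p: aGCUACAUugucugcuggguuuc
miR-222-3p: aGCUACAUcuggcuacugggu
miR-29a-3p: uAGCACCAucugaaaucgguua
miR-29b-3p: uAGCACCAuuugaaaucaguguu
The pair on chromosome X shares the seed GCUACAU and the pair on chromosome 7 shares AGCACCA.

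At the miR-221 and miR-222 locus the 5 Gy list held 14 peaks over 24.4 kb and the 0 Gy list 16 peaks over 16.4 kb. The longest, chrX:45619413-45630696, covered 11284 bp and scored 546. The 0 Gy list divided that stretch among 4 peaks, the longest of 3746 bp, which scored 2008. The longer 5 Gy peak thus carried the lower score. The first 0 Gy peak of the locus began at position 45607261. Before it, 5 Gy peaks at chrX:45602141-45602627 (487 bp, score 72.6) and chrX:45605493-45606416 (924 bp, score 125) had no 0 Gy counterpart. In the 100 kb bin of this locus 17 of 23 peaks had a 0 Gy match, where 73.0% of the whole list had one, so these unmatched peaks are not read as particular to it. At the miR-29 locus the lists held 11 peaks over 29.7 kb at 5 Gy and 16 over 27.9 kb at 0 Gy. One of the 5 Gy peaks, chr7:130587809-130599178, was among the 15 longest with 11370 bp. Another, chr7:130561099-130569362, covered 8264 bp and was tied at 3100, beside a 0 Gy peak of 7458 bp with a score of 2546. Whether any peak covers a hairpin was not measured.

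Division of long peaks was common but did not hold for most of them. Of the 1083 peaks of at least 4 kb, 334 (30.8%) overlapped at least 2 peaks of the 0 Gy list, and 25 overlapped at least 5. The choice of long 5 Gy peaks partly fixes this. In reverse, 200 (19.6%) of the 1019 peaks of that size at 0 Gy overlapped at least 2 peaks of the 5 Gy list, which holds fewer peaks in all. With all scores from 3100 upward taken as equal, 404 of the 1075 matched peaks scored below their best 0 Gy counterpart, 267 above and 404 the same. For the 334 that met at least 2 peaks of the 0 Gy list, 135 scored below, 138 above and 61 the same.

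Of the 1083 peaks of at least 4 kb, 8 had no match at 0 Gy, where 73.0% of the whole list had one. In reverse, 38 of the 1019 peaks of that size at 0 Gy met no 5 Gy peak. Some of the 8 are named here although they were picked after their values were seen. The longest, chr20:3849998-3856114, covered 6117 bp at MAVS, which encodes a mitochondrial adaptor of antiviral signalling, and scored 290. A peak of 5344 bp at AKAP12, a scaffold protein gene, scored 76.5 (chr6:151669828-151675171). At BMPR1A, a receptor gene of bone morphogenetic proteins, 4399 bp were covered with a score of 491 (chr10:88683332-88687730). OGA, the gene of the enzyme that removes O-linked N-acetylglucosamine, had 4163 bp (chr10:103574060-103578222) with a score of 190. Another of the 8, with 5832 bp on chromosome 3 (chr3:197676916-197682747), scored 81.9. Apart from the peak of 4126 bp on chromosome 20 (chr20:31442601-31446726), tied at 3100, these long unmatched peaks scored 491 or less. The nearest 0 Gy peak lay from 1154 bp (OGA) and 1449 bp (AKAP12) to 79781 bp away.

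In 100 kb bins counted from the first base of each chromosome, the 5 Gy peaks reached 8632 of 30022 bins (28.8%). The median reached bin held 3 peaks and had 2.51 kb covered, against 2.50 kb at 0 Gy. A peak was counted in the bin of its midpoint, and its base pairs were split at bin borders. Exactly 1 peak was held by 2589 bins, at least 10 by 892 bins, at least 20 by 102 bins and at least 30 by 10 bins. The 892 bins with at least 10 peaks contained 34.9% of the list. At least 20 kb was covered in 107 bins, at least 30 kb in 20 bins and at least 40 kb in 5 bins.

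The covered length gathered in few bins. The densest 1% of reached bins, 87 in number, held 6.89% of it, and 1455 bins (16.9%) held 50%. At 0 Gy the densest 1% held 6.98%, and 16.3% of bins held 50%. The bins leading the 2 lists also largely coincided. Of the 100 most covered bins at 5 Gy, 72 were among the 100 most covered at 0 Gy, and of the 100 with the most peaks, 60 were.

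**Figure D2:**
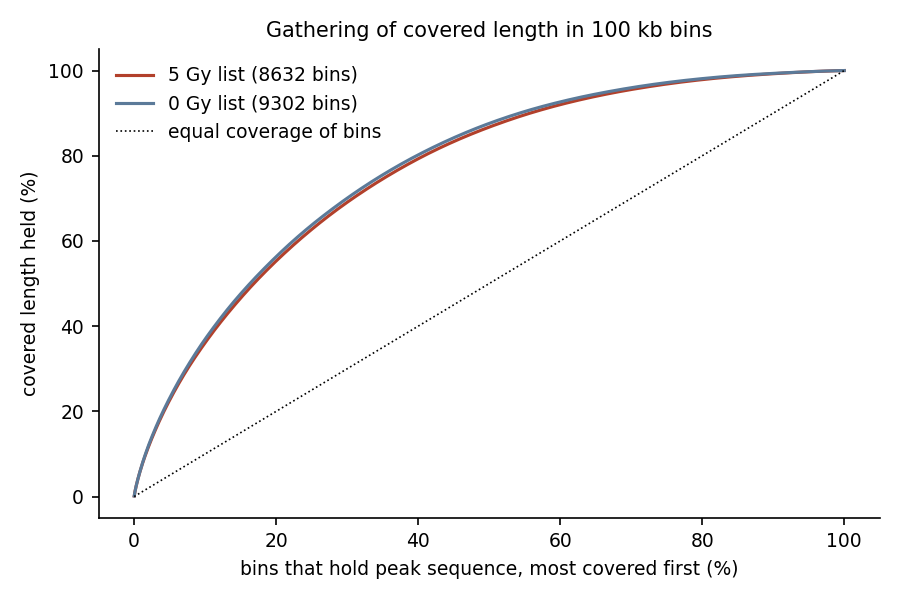
Share of the covered length (vertical axis, percent) held by the most covered 100 kb bins (horizontal axis, percent of bins that hold peak sequence), for the 5 Gy list (8632 bins) and the 0 Gy list (9302 bins). The curves nearly coincide, with 50% of the length in 16.9% of bins at 5 Gy and 16.3% at 0 Gy.

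Between classes of bins by peak number, the median length and score of peaks differed little and without a steady order. The median length was 584 bp in bins with 1 peak, 545 bp in bins with 5 to 9 peaks and 597 bp in bins with at least 20, and the median score stayed between 143 and 146. The share of peaks with a 0 Gy match was 66.2% (95% interval 64.3 to 68.0) in bins with 1 peak and 76.1% (95% interval 74.4 to 77.8) in bins with at least 20, around the 73.0% of the list. Bins of the latter class also had more 0 Gy sequence to meet, a median of 20.5 kb against 0.759 kb. The intervals treat peaks as independent, although the 2422 peaks of that class came from 102 bins, so they are too narrow.

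The bin with the most 5 Gy peaks lay on chromosome 16 (chr16:21400001-21500000). In it, 36 peaks covered 27.1 kb after irradiation, where the 0 Gy list had 38 covering 26.0 kb. This part of the short arm is known for repeated, near-identical copies of NPIP genes and SMG1 pseudogenes, among them NPIPB3 and SMG1P3. Reads from such copies cannot be assigned to one of them with certainty, and how the authors treated reads with several positions is not given in the sources used here. No peak of the bin reached a score of 3100, the highest being 793. A 0 Gy match was found for 24 of the 36 and was lacking for 12, where 73.0% of the whole list had one. A chain of 34 peaks in another copy-rich stretch (chr16:22448114-22543250, at SMG1P1) was 1 of 8 chains with at least 34 peaks and carries the same limit.

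The next 9 bins by peak number held 30 to 33 peaks each. ARHGAP29, which encodes a GTPase-activating protein, had 33 peaks over 46.9 kb (chr1:94600001-94700000), the most covered bin of the list. SMURF2 encodes a ubiquitin ligase of TGF-beta signalling, and its bin (chr17:62500001-62600000) also had 33 peaks. The same number lay in chr12:123800001-123900000, at SBNO1 and the histone methyltransferase gene KMT5A. ZNF91, a zinc-finger gene, had 32 peaks (chr19:23500001-23600000). Genes of both directions of nuclear transport followed with 31 peaks each, the exportin XPO1 (chr2:61700001-61800000) and the importin-like TNPO1 (chr5:72100001-72200000). ATAD2, a chromatin factor gene, had 30 peaks over 43.0 kb, PICALM, a clathrin assembly gene, 30 over 26.7 kb, and the noncoding RNA gene FTX 30 over 22.6 kb.

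Another 8 bins had 28 peaks each, so the 15 described by rule are the 10 above and the 5 of these 8 with the most covered sequence. Those 5 lay at HELLS (43.5 kb covered), ANLN, an actin-binding protein of cell division (38.3 kb), NUP98, a nuclear pore protein (25.5 kb), CELF1, an RNA-binding protein (21.8 kb), and the pair AXL and HNRNPUL1 (21.0 kb). AXL is a receptor tyrosine kinase and HNRNPUL1 an RNA-binding protein. The 3 tied bins below them were those of ATP13A3, a P-type ATPase gene (20.1 kb), SLC4A7, a bicarbonate transporter gene (19026 bp), and chr4:140200001-140300000 (16.5 kb). The SLC4A7 bin (chr3:27400001-27500000) had 1.56 times the 12.2 kb covered at 0 Gy. Of its 28 peaks, 12 had a 0 Gy match and 16 had none, where 73.0% of the whole list had one. Scores varied too. The median score was 665 in the AXL and HNRNPUL1 bin, where 5 of 28 peaks scored at least 3100, and 116 in the NUP98 bin, where none did.

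**Figure D3:**
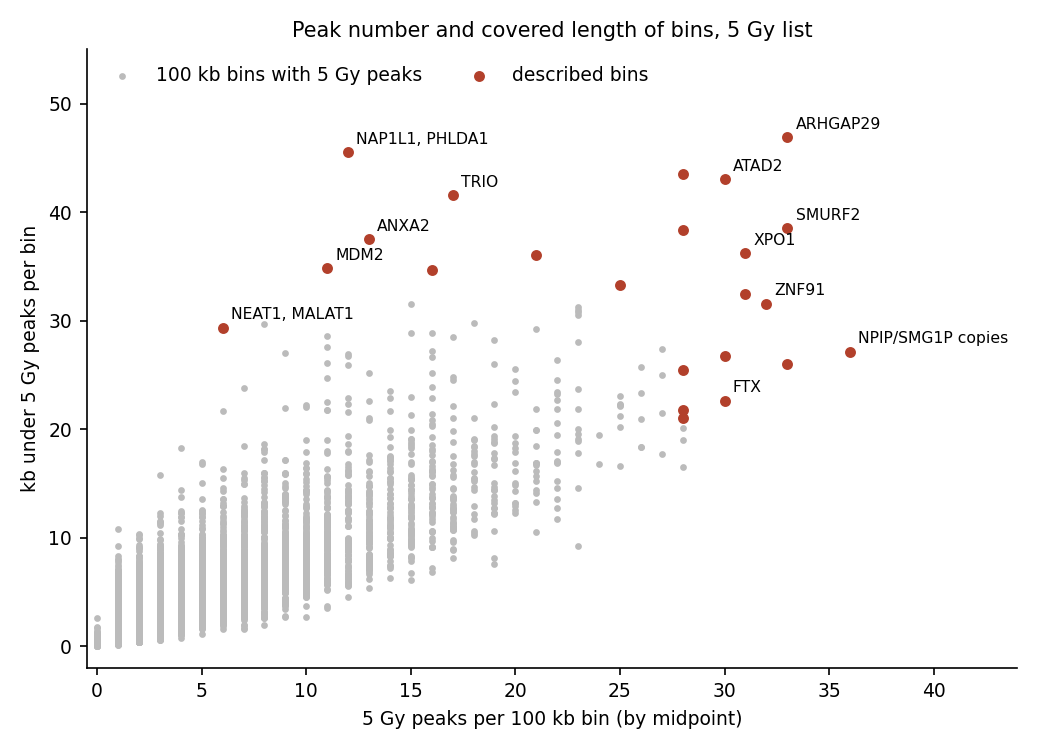
Number of 5 Gy peaks (horizontal axis) and kb under 5 Gy peaks (vertical axis) in each 100 kb bin, with the described bins in red and some of them named. NAP1L1, TRIO, ANXA2, MDM2 and the NEAT1 and MALAT1 bin lie high with 6 to 17 peaks, and all bins with 28 to 36 peaks, red or grey, spread from 16.5 to 46.9 kb.

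By covered length, 5 bins passed 40 kb. They were those of ARHGAP29 (46.9 kb), NAP1L1 with PHLDA1 (45.5 kb), HELLS (43.5 kb), ATAD2 (43.0 kb) and TRIO, a guanine nucleotide exchange factor gene (41.5 kb). They differed in make-up. The NAP1L1 and PHLDA1 bin had 12 peaks with a median length of 2313 bp, and 16286 bp of it came from 1 peak. PHLDA1, a gene of a pleckstrin homology domain protein, carried 1 peak of 6619 bp there, tied at 3100 (chr12:76418961-76425579). The ARHGAP29 bin reached a similar length with 33 peaks of median 837 bp, the longest of 6360 bp. Across all 8632 bins, which share their libraries, Spearman's rank correlation between peak number and covered length was 0.83.

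Below these 5, the most covered bins of the list were those of SMURF2 (38.5 kb), ANLN (38.3 kb), ANXA2 (37.5 kb in 13 peaks), XPO1 (36.2 kb) and FUBP1, a single-strand nucleic acid binding protein gene (36.0 kb in 21 peaks). The MDM2 bin had 34.8 kb in 11 peaks with a median score of 1474, the highest median score of the 22 bins named by either rule. The bin of MAVS and PANK2, the latter a pantothenate kinase gene, had 34.7 kb in 16 peaks. EXT1, which encodes a heparan sulphate polymerase, had 33.3 kb in 25 peaks, TNPO1 32.4 kb and ZNF91 31.6 kb. Of the 15 bins with the most peaks, 8 were also among the 15 most covered.

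The bin with NEAT1 and MALAT1 (chr11:65200001-65300000), long nuclear noncoding RNAs, ranked 23rd by covered length and was added after the values were seen. It had 29.4 kb in 6 peaks with a median length of 6183 bp. The peak at MALAT1, chr11:65266313-65274968, covered 8656 bp with a score of 3224 at 5 Gy, and the 0 Gy peak there covered 6702 bp with a score of 842. At NEAT1, 5 Gy peaks of 8082 and 8412 bp lay side by side, both tied at 3100, where the 0 Gy list had peaks of 3846, 705 and 8295 bp.

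**Figure D4:**
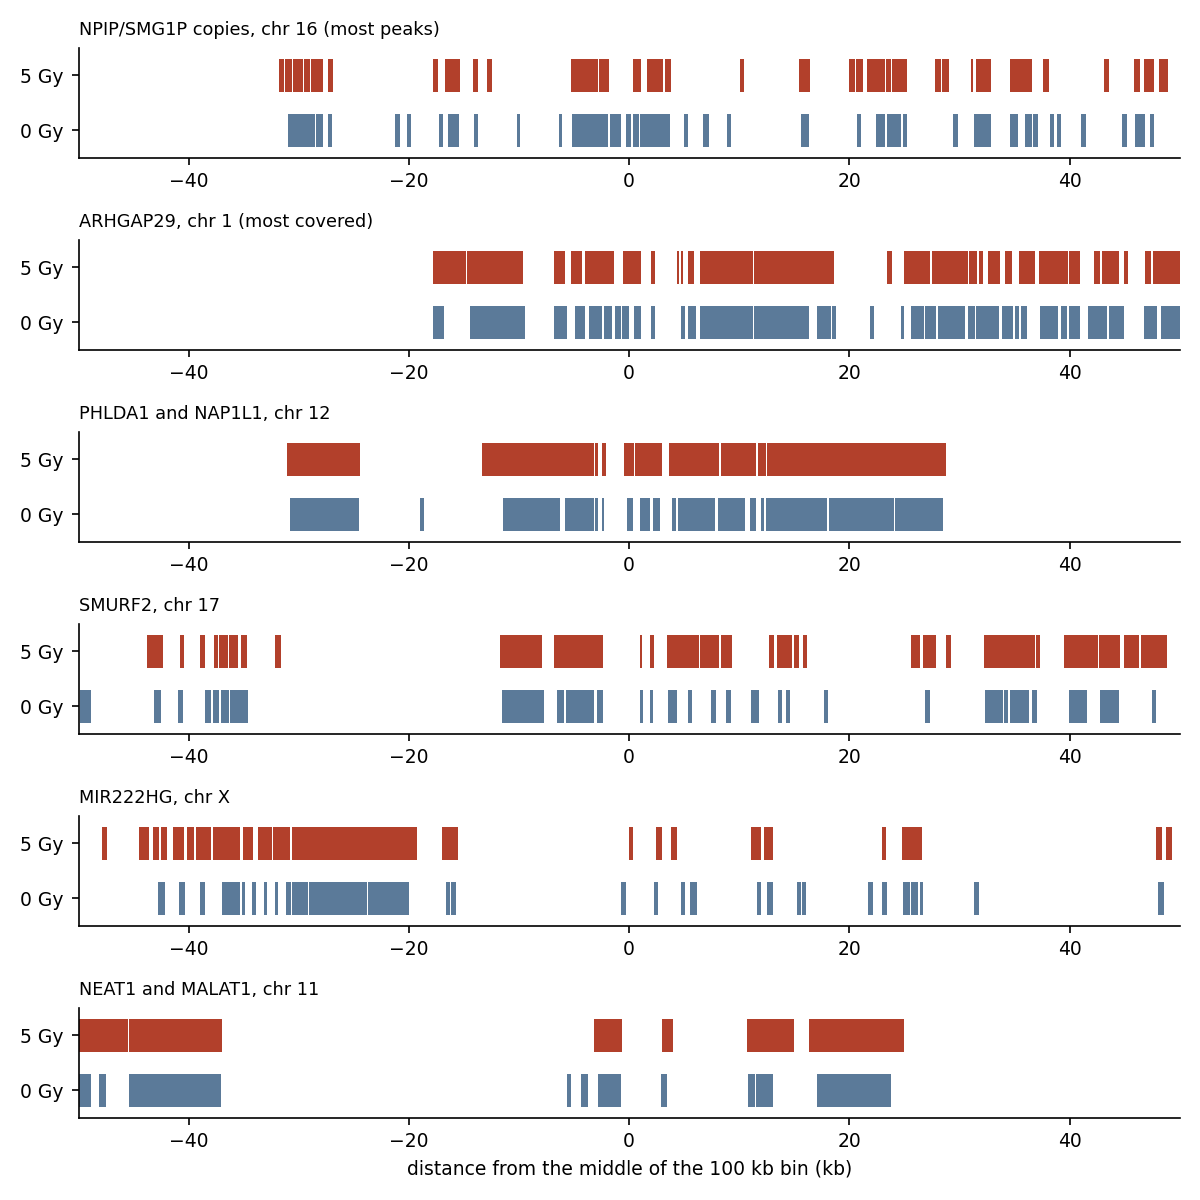
Peaks of the 5 Gy list (red) and the 0 Gy list (blue) in 6 bins of 100 kb, drawn by distance in kb from the middle of each bin. The chromosome 16 bin shows 36 scattered peaks at 5 Gy, with a median length of 614 bp, and the NAP1L1 and PHLDA1 bin 12 peaks that cover 45.5 kb. The SMURF2 bin has 38.5 kb covered at 5 Gy against 25.8 kb at 0 Gy.

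Set against the 0 Gy list, most of the leading 5 Gy bins by covered length were also leading bins there, and fewer of those by peak number were. Among the 15 most covered bins at 5 Gy, 11 were among the 15 most covered at 0 Gy, and of the 15 with the most peaks, 6 were among the corresponding 15. By covered length, SMURF2 ranked 6 at 5 Gy and 49 at 0 Gy, MDM2 11 and 54, MAVS and PANK2 12 and 31, and TNPO1 14 and 24. Covered length at 5 Gy over that at 0 Gy ranged from 0.79 (EXT1) to 1.49 (SMURF2), with a median of 1.05. None of the 15 differed by 1.5 times or more, where 4.01% of the 972 bins with at least 10 kb in either list had 1.5 times more at 5 Gy and 10.8% had 1.5 times more at 0 Gy. In 10 of the 15 the 5 Gy length was the larger, against 36.6% of the 972 bins. Since the bins were picked for high values at 5 Gy, this lean is partly fixed by the choice. Picked for 0 Gy instead, 6 of 15 bins had more at 5 Gy, and the median ratio was 0.93.

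Single bins moved in both directions. The SMURF2 bin had 33 peaks in both lists, but 38.5 kb at 5 Gy and 25.8 kb at 0 Gy. It also holds peaks outside that locus, since its first 5 Gy peak begins at 62506181 and the first of the locus at 62538264. MDM2 had 34.8 kb against 25.5 kb, MAVS and PANK2 34.7 kb against 28.0 kb. Less was covered at 5 Gy at EXT1, with 25 peaks over 33.3 kb against 44 peaks over 42.2 kb, and at TRIO, with 41.5 kb against 52.4 kb. FTX stood lowest among the 22 named bins with a ratio of 0.65, its 30 peaks taking up 22.6 kb after irradiation against 50 taking up 34.6 kb in the reference. Of the 574 peaks in the 22 bins, 484 (84.3%) had a 0 Gy match, against 73.0% of the list and 76.1% in all bins with at least 20 peaks. The 22 were picked for many peaks or much covered length, which partly fixes a high share, so it is not read as their trait. At XPO1, NAP1L1, TRIO and ANXA2 every 5 Gy peak of the bin had a 0 Gy match. In the SMURF2 bin 23 of 33 had one and 10 had none, which is near the share of the list.

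Bins cut through loci, so peaks of the 5 Gy list within 10 kb of each other were also joined into chains. The list formed 13478 chains. Of these, 6739 consisted of 1 peak, which is 18.6% of all peaks, while 521 had at least 10 peaks and held 20.8% of the list. The chain with the most peaks lay at SMURF2 (chr17:62538264-62646982), with 48 peaks over 53.6 kb of a 108.7 kb span. The 0 Gy list had 42 peaks over 29.1 kb within the same borders. ARHGAP29 came next with 38 peaks, and was the more filled, with 58.8 kb (72.5%) of its 81.1 kb span covered. The NPIPB3 and SMG1P3 stretch had 36. PICALM had 35 over 34.5 kb, where the 0 Gy list had 49 peaks over 37.9 kb. PUM2, the gene of an RNA-binding repressor of translation, also had 35, over 27.3 kb of a 101.7 kb span (chr2:20448410-20550121). The 0 Gy list had 53 peaks over 33.8 kb there. In 4 of these 5 chains the 5 Gy list, which is the smaller (36216 peaks against 47930), had fewer peaks than the 0 Gy list. SMURF2 was the exception only within borders set by the 5 Gy peaks, beyond which 0 Gy peaks continued. Over the wider SMURF2 locus there were 49 peaks over 54.2 kb at 5 Gy and 51 over 38.3 kb at 0 Gy.

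Densely covered bins seldom adjoined. The 107 bins with at least 20 kb formed 98 separate stretches, and 8 of these joined at least 2 bins. The longest stretch took 3 bins of the zinc-finger cluster around ZNF460 (chr19:57700001-58000000), with 29 peaks over 76.4 kb at 5 Gy and 39 over 77.8 kb at 0 Gy. Stretches of 2 bins lay at SMURF2, at EXT1, and at MPHOSPH9, CDK2AP1, SBNO1 and KMT5A on chromosome 12 (chr12:123700001-123900000, 56 peaks over 57.3 kb). Others lay at the miR-29 locus, at PRRC2B on chromosome 9, around SUMO2 and NUP85 on chromosome 17, and around TPM3 on chromosome 1.

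Over whole chromosomes, chromosomes 19 and 17 were the most densely covered, with 25.1 and 23.7 kb under peaks per Mb between their first and last peak. Both are known to be rich in genes. Chromosome 13 had the least, 5.73 kb per Mb, followed by chromosome 21 with 6.55 and X with 7.23. Peaks reached 51.8% of the bins of chromosome 19 and 19.7% of those of chromosome 13. Peak length varied little by comparison, with chromosome medians from 524 bp (chromosome 2) to 596 bp (chromosome 16). Bins with at least 20 peaks were most frequent on chromosomes 12 and 17, with 11 each, and there were none on chromosomes 13 and 21.

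**Figure D5:**
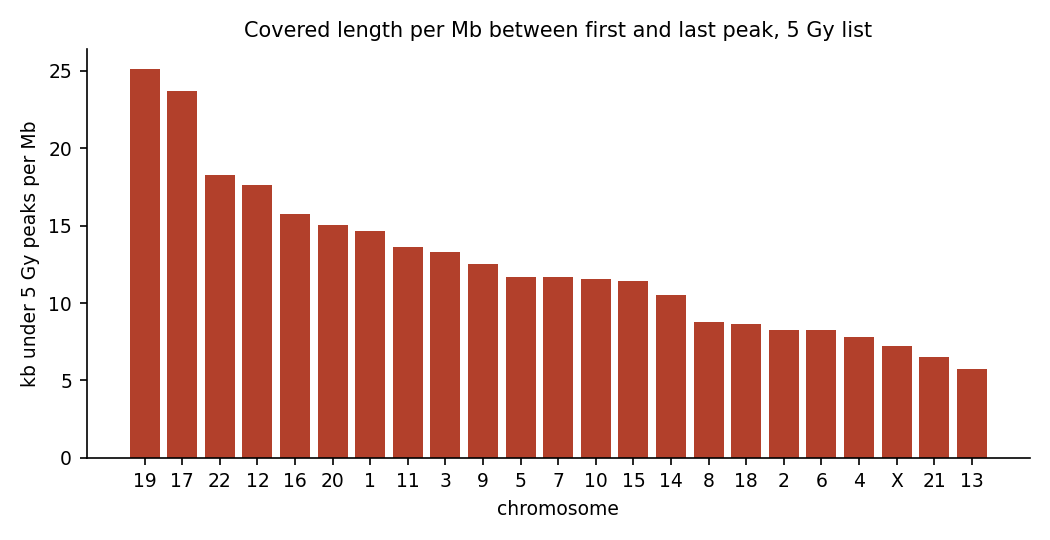
Length under 5 Gy peaks in kb per Mb of chromosome, measured between the first and last peak of each chromosome and ordered by that value. Chromosome 19 stands at 25.1 kb per Mb and chromosome 13 at 5.73.

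Outside the bins described so far, each chromosome had a leading bin of its own. On chromosome 9 it lay at UGCG, the gene of ceramide glucosyltransferase, with 15 peaks over 31.5 kb (33.4 kb at 0 Gy). On X it was the MIR222HG bin, with 23 peaks over 30.9 kb, 1.34 times the 23.1 kb at 0 Gy. On chromosome 11 it was that of the Ras-related gene RRAS2, with 30.8 kb against 41.7 kb at 0 Gy. None of its 23 peaks at 5 Gy lacked a match, where 73.0% of the whole list had one. SMC4, a condensin subunit gene, led chromosome 3 with 29.7 kb, HNRNPC chromosome 14 with 26.7 kb, the nucleoporin gene NUP153 chromosome 6 with 25.8 kb and the histone methyltransferase gene NSD2 chromosome 4 with 25.6 kb. The leading bins of chromosomes 13 (ANKRD10, an ankyrin repeat protein gene, 21.0 kb), 22 (EWSR1, an RNA-binding protein gene, 20.8 kb), 18 (SS18, a chromatin remodelling subunit gene, 16.8 kb) and 21 (SLC5A3, 16.8 kb) were the least covered of the leaders.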

How the data were processed

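HuR and IgG libraries from WS1 cells at 0 and 5 Gy were compared by the authors, 1 library per group. Per the submitters' processing notes, the tools were cutadapt 1.9.1 and Bowtie2 2.2.4, with hg19 as genome build. The deposited lists give position and the authors' peak score, without reads or strand. Peak names begin with MACS, and list names carry 1e-06, 10 and 30. The caller's version and the treatment of duplicates and of multiple mapping are not stated there. Depth is unknown, so intervals (Wilson, or order statistics for medians, 95%) cover the counting of peaks only. They treat peaks as independent.

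Peaks were binned, overlapped and joined in Python 3.11.15 with numpy 2.4.6, pandas 2.3.3 and scipy 1.17.1. Binning and overlap were tested on simulated data. Named loci were the 15 longest peaks, the 15 bins with the most peaks, the 15 most covered bins, the 5 chains with the most peaks and each chromosome's most covered bin, with ties ordered by covered length. Others are marked as picked later or stand beside these. Chromosome Y is not described. Members and rules were chosen with earlier results of these data known. Planned gene and cell marker lists were not used, for want of an hg19 annotation.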

Additional observations from a re-analysis of the deposited data

How the results depend on the processing

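With 8 alternative settings, 19 values of 5 results were recomputed; 9 stayed within 1.5 times the peak number or covered length reported, 1 moved beyond that and 9 moved beyond a counting interval. The median length of 559 bp became 683 bp with peaks within 1 kb joined, 740 bp for scores from 100 upward and 1976 bp for scores from 1000 upward. The densest 1% of bins held 6.91% of the covered length with bins shifted by 50 kb, 6.69% with bins of 200 kb, 6.72% with bins of 50 kb and 6.60% at a score of at least 100, against 6.89%; its interval treats base pairs as independent, which makes it narrow. The share of peaks with a 0 Gy match (73.0%) was 55.4% under a reciprocal overlap of 50% and 86.5% at a score of at least 100.

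Which bin led depended on where bins were cut. The most peaks in 1 bin (36, chromosome 16) were 45 at SMURF2 with bins shifted by 50 kb, 45 at SLC4A7 on chromosome 3 with bins of 200 kb, 28 at ARHGAP29 with bins of 50 kb and 27 at ARHGAP29 at a score of at least 100. They were 20 with peaks within 1 kb joined, in another stretch of chromosome 16 (chr16:29500001-29600000). The same bin led, with 36, when peaks were counted in every bin they overlap. The most covered bin (46.9 kb, ARHGAP29) was that of the miR-29 locus with shifted bins (50.8 kb), TRIO with bins of 50 kb (41.5 kb) and NAP1L1 at a score of at least 100 (44.8 kb), while ARHGAP29 led bins of 200 kb with 65.6 kb. No paired analysis was possible because no group had more than 1 library. Unknown depth limits every comparison of the lists.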

Other observations

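Some long 5 Gy peaks stood alone. Among peaks of at least 2 kb, the one farthest from any other 5 Gy peak lay at chr3:116363059-116365621, with 2563 bp, a score tied at 3100 and 2019 kb to its nearest neighbour. The next, chr18:5289281-5292162, had 2882 bp and a score of 1657, with 1664 kb to its neighbour. Both met 1 peak at 0 Gy, which covered 2554 and 2781 bp of them. A longer peak of this kind, 6307 bp at chr13:92001209-92007515 with a score of 1145, lay over 5 peaks of the 0 Gy list that covered 3592 bp of it.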
